A study of Mus musculus with 20 samples.

Results

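The 35 genes described here act in S phase, the stage of the cell cycle in which the genome is copied. They were chosen by name as genes of DNA replication, and all 35 were found by symbol among the 49671 genes of the count table. RNA was measured in 20 libraries of mouse T cells, 5 in each of 4 groups: CD8 T cells at week 1 and week 4 of culture, and CD4 T cells at week 1 and week 3. Every group was enriched from spleen and lymph nodes, activated by plate-bound antibodies to CD3 and CD28 with IL-2 at 1 ng/mL, and afterwards grown with IL-15 (50 ng/mL) and IL-7 (10 ng/mL). The expansion lasted 4 days in both week 1 groups, 25 days in the CD8 week 4 group and 18 days in the CD4 week 3 group, and the cells of all groups were sorted by surface markers before the RNA was taken. The protocol names polyclonal cells of albino B6 mice, activated for 72 hours, and transgenic Marilyn-BLITC and MataHari-BLITC cells, activated for 24 hours, and the labels of single libraries do not say which they hold. They also do not tie a library to an animal or a culture, so each p-value measures no more than the spread among samples within groups, and that spread may be technical. In the main fit of all 20 libraries, the 4 groups shared 1 estimate of this spread, so a CD8 p-value also rests on the CD4 libraries, and the reverse. Replicate numbers in this text were given in sample order, and they do not pair libraries across groups.

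A cell copies its DNA once per cycle. In G1, origins of replication are loaded with the MCM helicase, a ring built from Mcm2 to Mcm7, with the help of loaders such as Cdc6. At the start of S phase the helicase is activated by Cdc45 and the GINS complex, polymerases are primed by primase and held on the DNA by the sliding clamp PCNA, and nucleotides are supplied by ribonucleotide reductase and thymidylate synthase. Many of these genes are transcribed late in G1 by E2F factors as kinases driven by cyclins, cyclin E among them, inactivate the RB protein. Naive and resting memory T cells are out of cycle, activation through the T cell receptor brings them into rapid division, and IL-7 and IL-15 are known to sustain survival and slow division of memory cells. In bulk RNA, fewer cells in S phase and less RNA per cell cannot be told apart.

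The promoters of these genes are shown because the fold changes of all 35 during culture lay below 0 in both cell types and E2F factors are known to act at many of them. RefSeq promoter windows on GRCm38.p6, running from 250 bases before to 50 bases after a start site, matched 27 of the 35 genes. They were searched on both strands for 4 8-mers of the E2F type (TTTCCCGC, TTTGGCGC, TTTGCCGC and TTTCGCGC), for CCAAT and for TTTGAA. At least 1 E2F 8-mer stood in the windows of 11 of the 27 genes (40.7%), against 2.6% of all 27025 genes with a window. CCAAT stood in 18 of 27 (66.7%, against 41.1% of all genes), and TTTGAA in 5 (18.5%, against 20.2%). TTTCCCGC, TTTGGCGC and TTTCGCGC were each found in 5 of the 27 genes, against 1.24%, 0.585% and 0.374% of all genes, and TTTGCCGC was found in none of them. A match describes letters in a window, not a bound site.

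In 9 genes an E2F 8-mer lay before a RefSeq start site. These stretches are printed on the gene's own strand, 5′ to 3′, with the 8-mers in capitals and up to 30 bases on each side. A RefSeq start need not be the outermost start of a gene: the stretches of Cdc6, Mcm7 and Uhrf1 lie within the span of the gene. The stretch of Hells runs across the start of the gene's span, and its 8-mer lies inside the span. Mcm7 and Uhrf1 each had a further window, without an E2F 8-mer, and that of Uhrf1 covers the start of its span. The stretches of Mcm5 at chr8:75109326-75109397 (plus strand) and of Mcm6 at chr1:128359715-128359845 (minus strand) hold 2 8-mers that overlap on opposite strands, and Mcm6 has a further copy nearer the start. Cdc6 (chr11:98907983-98908050, plus strand), Cdca7 (chr2:72476118-72476185, plus strand) and Mcm7 (chr5:138172011-138172078, minus strand) hold TTTCCCGC read from the other strand. Hells (chr19:38930898-38930965, plus strand) holds the same 8-mer as written. Uhrf1 (chr17:56304098-56304165, plus strand) holds TTTCGCGC as written. Pola1 (chrX:93632256-93632323, minus strand) holds TTTGGCGC read from the other strand, and Dtl (chr1:191575545-191575582, minus strand) holds it as written, ending at the base before the start.
Mcm5: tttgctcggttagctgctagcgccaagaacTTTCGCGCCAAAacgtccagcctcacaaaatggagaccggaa
Mcm6: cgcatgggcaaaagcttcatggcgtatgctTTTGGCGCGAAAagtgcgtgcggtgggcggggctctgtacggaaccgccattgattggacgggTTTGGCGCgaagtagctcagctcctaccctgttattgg
Mcm7: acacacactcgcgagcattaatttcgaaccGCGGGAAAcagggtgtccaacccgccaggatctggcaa
Cdc6: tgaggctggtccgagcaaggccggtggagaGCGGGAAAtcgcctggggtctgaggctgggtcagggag
Pola1: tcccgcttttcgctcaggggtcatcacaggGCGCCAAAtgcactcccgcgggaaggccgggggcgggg
Uhrf1: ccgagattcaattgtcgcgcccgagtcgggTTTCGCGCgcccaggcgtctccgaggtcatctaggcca
Hells: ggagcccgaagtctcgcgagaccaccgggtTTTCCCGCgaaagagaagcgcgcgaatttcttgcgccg
Cdca7: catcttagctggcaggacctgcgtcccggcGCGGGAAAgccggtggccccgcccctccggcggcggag
Dtl: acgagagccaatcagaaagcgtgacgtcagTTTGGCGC

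In Mcm3 and Clspn the 8-mers lay only after the start. The 11 genes with an E2F 8-mer had median log2 fold changes of -1.39 in CD8 and -1.71 in CD4 cells during culture. The 16 genes with a window and no 8-mer had medians of -1.17 and -1.28, and the 8 genes without a window had -1.23 and -1.56. The ranges of these sets overlapped in both cell types, and the differences between them were not tested.

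Library totals ran from 13.3 to 28.3 M assigned reads. The lowest count of any member in any library was 23, for Dscc1, and the lowest counts of Cdc6 and Exo1 were 26 and 29. All 35 passed the filter on low counts, as did 13290 genes in all. The cell type markers matched the labels: Cd4 was at 0 in every CD8 week 4 library and at most 0.585 CPM (reads of a gene scaled to a common library total) in CD8 week 1, against at least 510.2 CPM in CD4 libraries, and summed Cd8a and Cd8b1 were at least 988 CPM in CD8 and at most 30.7 CPM in CD4 libraries. Of 6 B cell genes the summed level was 9.73 to 13.6 CPM in CD8 week 1 and 1.15 to 8.84 CPM in CD8 week 4, with Ms4a1 and Pax5 at 0 in week 4, and 0.178 to 1.49 CPM in CD4 libraries. Summed NK cell genes ran from 719 to 875 CPM in CD8 week 1 and 828 to 1074 CPM in week 4, most of it Nkg7, which CD8 T cells express too. In CD4 libraries they summed to 22.9 to 96.7 CPM at week 1, and at week 3 to 122 CPM in replicate 2 against 20.8 to 57.1 CPM in the other 4. Of 9 myeloid genes the summed level was 9.16 to 22.9 CPM in CD8 week 1, 4.67 to 23.3 CPM in week 4 and at most 3.73 CPM in CD4 libraries, most of it Cd68, with Lyz2 at 0 in all groups. Ribosomal protein genes took 6.42 to 7.75% of counts in CD8 week 1 and 7.96 to 9.04% in week 4, and 7.12 to 8.07% and 8.22 to 10.3% in CD4 weeks 1 and 3. Mitochondrial genes took 1.87% of counts in CD8 week 1 replicate 3 against 1.27 to 1.6% in the other 4 of that group, and 1.385 to 2.145% in CD8 week 4. In CD4 cells they took 1.44 to 1.65% at week 1, and at week 3 1.61% in replicate 2 against 1.75 to 2.78% in the other 4. The part of these in the results was not tested.

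Some libraries stood apart from their group in the level of the replication genes. The measure used was the median, over the 35 genes, of the log2 CPM minus that gene's mean over the 20 libraries, with CPM taken over library totals scaled by TMM (trimmed mean of M values). It was 1.29, 1.04, 0.18, 1.12 and 1.21 in CD8 week 1 replicates 1 to 5, so replicate 3 lay near the week 4 libraries, which had -0.12, -0.12, 0.13, -0.56 and -0.47. All 35 genes were lowest in replicate 3 among the week 1 CD8 libraries. In CD4 cells it was -0.29, 0.32, 0.87, 0.30 and 1.02 at week 1, and 34 of the 35 genes were lowest in replicate 1. At week 3 it was -1.03, 0.20, -1.55, -1.73 and -1.58, and all 35 genes were highest in replicate 2. In CD4 week 3 replicate 2 the summed erythroid genes were at 18.9 CPM, against at most 2.00 CPM in the other 4. For the changes during culture, the values without CD8 week 1 replicate 3 and without CD4 week 3 replicate 2 follow each comparison. Both libraries were singled out by the level of these same genes, so larger falls without them follow from the choice. Such falls and their adjusted p are no further support.

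**Figure D1:**
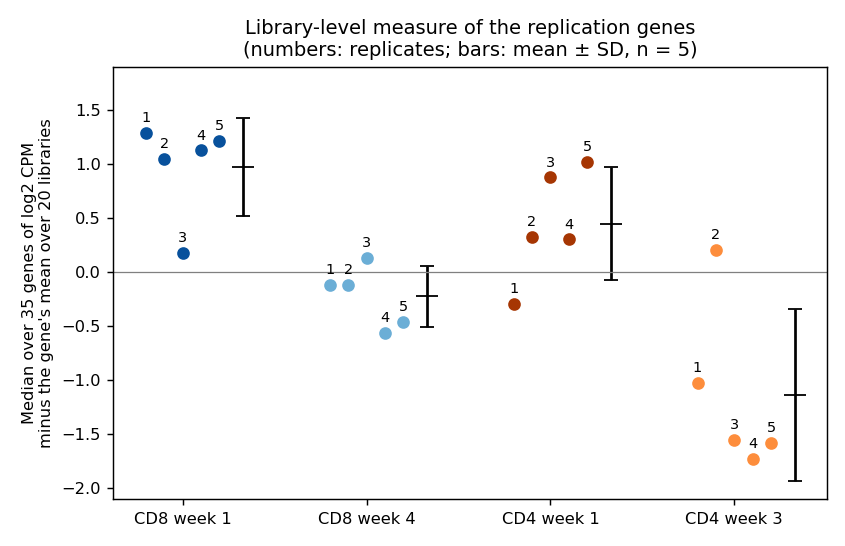
Each point is 1 library, numbered by replicate, and its height is the median over the 35 replication genes of log2 CPM minus the gene's mean over the 20 libraries. Bars give the group mean ± SD (n = 5). CD8 week 1 replicate 3 (0.18) sits beside CD8 week 4 replicate 3 (0.13), and CD4 week 3 replicate 2 (0.20) sits above the other CD4 week 3 libraries (-1.73 to -1.03).

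The first comparison asked how expression changed in CD8 T cells between week 1 and week 4. Replication genes fell: 33 of the 35 were lower at week 4 and none was higher by edgeR's quasi-likelihood test at a Benjamini-Hochberg adjusted p under 0.05, where 16.4% of the 13290 genes tested were lower and 17.1% higher. The median log2 fold change over the 35 was -1.27, a 2.41-fold fall, against 0.03 over all genes, and single genes ran from -1.89 (E2f8) to -0.76 (Rfc2). Cdc6 and Ung were the 2 that did not pass, and their values were also below 0. The 35 genes took 0.584 ± 0.155% of all counts at week 1 and 0.241 ± 0.0459% at week 4 (SD, n = 5). In 21 of the 35, every week 4 library lay below every week 1 library, against 9.78% of all genes.

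The count rested on all libraries together. Without CD8 week 1 replicate 3 all 35 genes passed, and the median was -1.41, where 2519 of 13450 genes tested were lower. Every log2 fold change was then further below 0, from -2.06 to -0.91, and the fold changes moved by 1.05 to 1.14 times. That direction was fixed in advance, since the library left out was lowest of its group for all 35 genes. The count was 20 without CD8 week 4 replicate 4 and 21 without replicate 5, against 23 to 35 with any other CD8 library left out. Of all genes tested, 1762 of 13446 were lower without replicate 4 and 1827 of 13444 without replicate 5. The 13 calls that ended when some library was left out (Mcm5, Mcm6, Prim1, Dscc1, Tyms, Rrm2, Uhrf1, Clspn, Exo1, Dtl, Ccne2, E2f1 and E2f8) reached adjusted p of at most 0.0954, and the other 20 held each time. The CD8 libraries carry sample numbers from 2 separate ranges and the CD4 libraries from a range of their own, which the labels do not explain. Within the lower range, with 3 libraries a week and replicate 3 among them, 3 genes passed, Clspn, Blm and E2f8 (median -1.01). There 287 of all 12401 genes tested were lower. Within the upper range, with 2 libraries a week, all 35 passed (median -1.80), where 3254 of 12969 were lower. The calls over all genes thus moved with the range too. With the range as a term in the fit 34 passed, with a median of -1.29, where 2061 of 12402 were lower. A fit of only the CD8 libraries, and so with their own spread, gave all 35 as lower. The median there was -1.29, and 2126 of 12402 genes tested were lower.

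**Figure D2:**
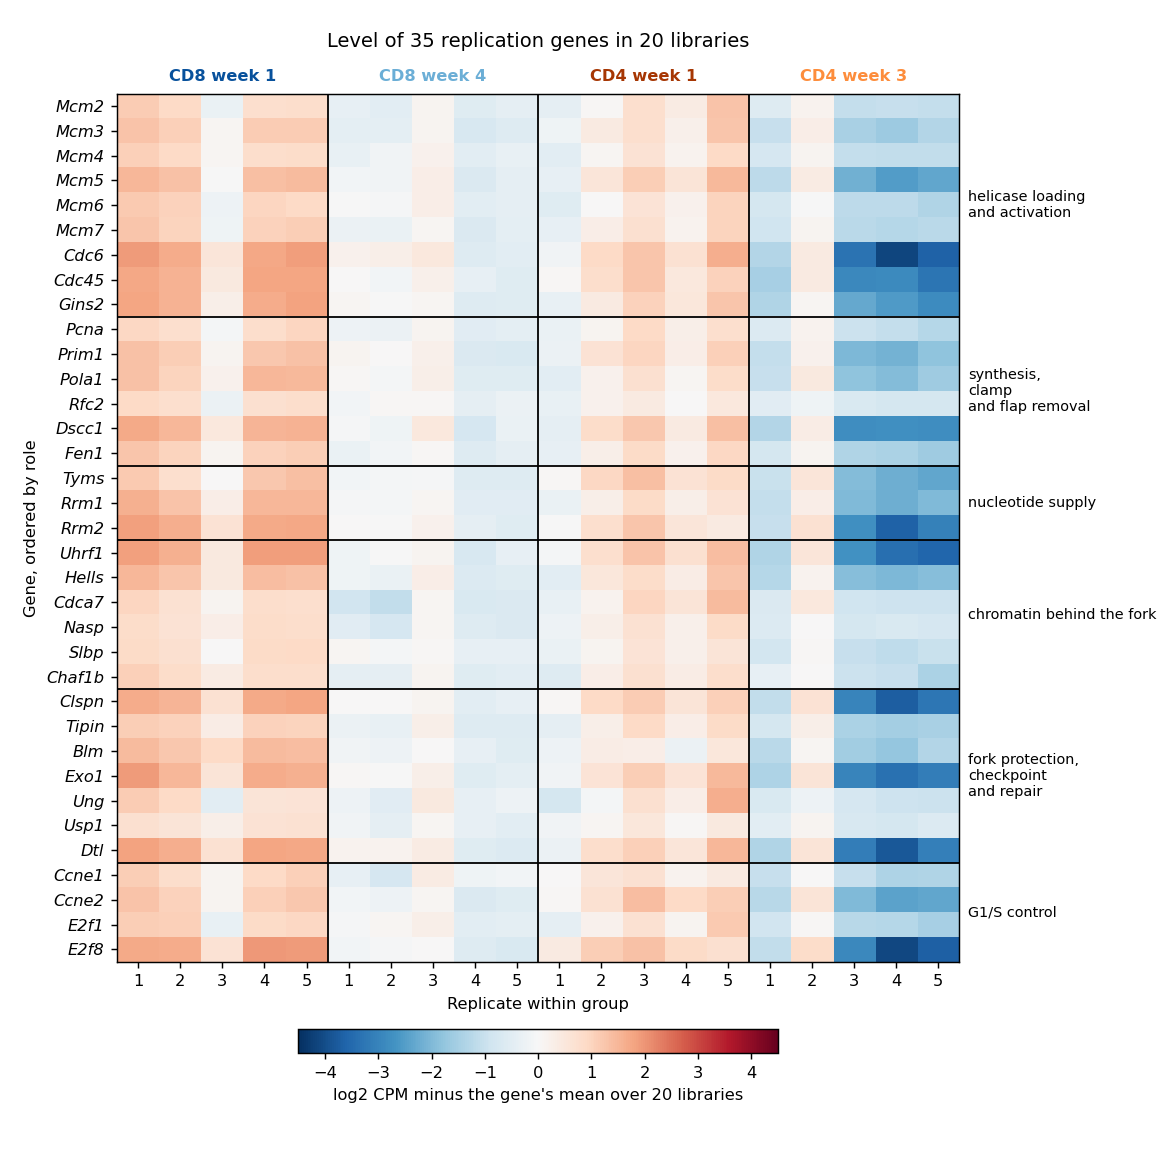
Rows are the 35 replication genes by role and columns the 20 libraries by group and replicate, and colour is log2 CPM minus the gene's mean over the 20 libraries. CD8 week 1 libraries other than replicate 3 are the most uniformly red, and 3 of the CD4 week 3 libraries (replicates 3 to 5) are the deepest blue.

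The same question in CD4 T cells, between week 1 and week 3, gave 34 lower genes and none higher, where 8.80% of all genes tested were lower and 7.67% higher. The median log2 fold change was -1.31, a 2.48-fold fall, against 0.01 over all genes, and the range was from -2.32 (Cdc6) to -0.67 (Usp1). Rrm2 was the gene that did not pass. The 35 genes took 0.409 ± 0.14% of counts at week 1 and 0.16 ± 0.0992% at week 3 (SD, n = 5). The groups overlapped in all genes but Ccne1, so that 1 of 35 had every week 3 library below every week 1 library, against 3.88% of all genes. Without week 3 replicate 2 all 35 genes passed and the median was -1.91, where 1967 of 13448 genes tested were lower. With any other CD4 library left out the count was 23 to 33, and 11 calls ended at least once (Mcm2, Cdc6, Pola1, Rrm1, Uhrf1, Cdca7, Clspn, Exo1, Ung, Dtl and E2f8, with adjusted p of at most 0.114). With only the 10 CD4 libraries in the fit, and so their own spread, 11 genes passed: Mcm6, Mcm7, Gins2, Prim1, Rfc2, Fen1, Hells, Nasp, Slbp, Ccne1 and E2f1. Calls were fewer over all genes too in that fit, with 551 of 12380 lower, against 1169 of 13290 with all 20 libraries.

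**Figure D3:**
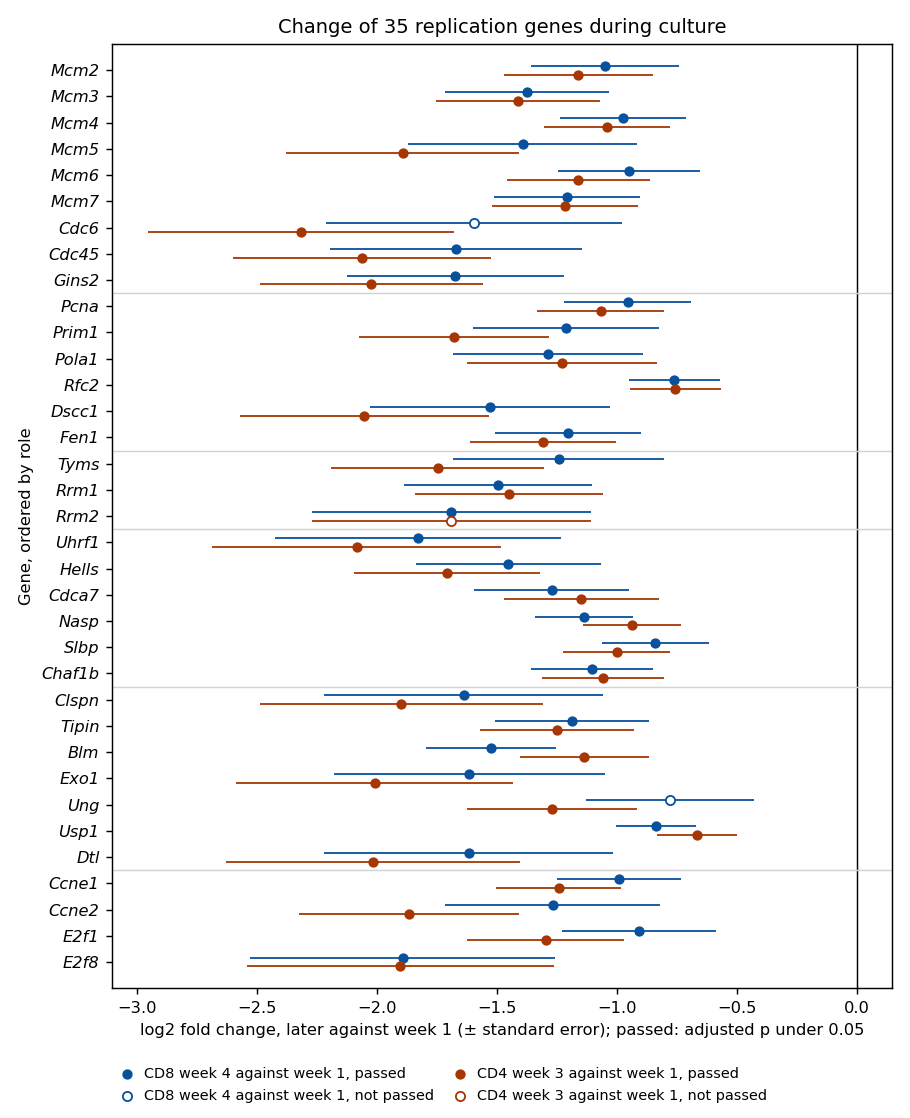
Points give each gene's log2 fold change during culture in CD8 (blue) and CD4 cells (brown), bars its standard error from the edgeR fit, and open points the genes that did not pass. All 70 points lie below 0, from -2.32 for Cdc6 in CD4 cells to -0.67 for Usp1 in CD4 cells.

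Leaving out CD4 week 3 replicate 2 made the CD4 fall larger for each of the 35 genes. This library was highest of its group for all 35, so that outcome was fixed in advance and adds no support. The log2 fold changes then ran from -3.63 (Cdc6) to -0.86 (Usp1), with adjusted p of at most 0.0116 by edgeR. For 17 genes the fold change moved by over 1.5 times, and by 2.73 times at most. Among the helicase genes, the log2 fold changes without it were -3.63 for Cdc6, -3.25 for Cdc45, -2.82 for Gins2 and -2.75 for Mcm5. The genes of synthesis and nucleotide supply in this set had -3.05 (Dscc1), -2.31 (Prim1), -1.91 (Pola1), -2.90 (Rrm2), -2.59 (Tyms) and -2.14 (Rrm1). Of the chromatin and fork genes, Uhrf1 had -3.38, Hells -2.34, Dtl -3.35, Exo1 -3.30 and Clspn -3.17. E2f8 and Ccne2, of the G1/S control, had -3.35 and -2.81.

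Helicase genes are taken first, since they act first. Of 9 genes for loading and activating the helicase, 8 fell in CD8 cells and all 9 in CD4 cells, with medians of -1.38 and -1.41. Mcm6 (ENSMUSG00000026355, chr1:128331590-128359664, minus strand), a subunit of the MCM ring, had the highest mean CPM of this role. Its level was 648, 584, 242, 552 and 534 CPM in CD8 week 1 replicates 1 to 5 and 283, 275, 346, 203 and 217 CPM in CD8 week 4. Replicate 3 of week 1 lay within the range of week 4, and the other 4 lay above it (log2 fold change -0.95, SE 0.297, adjusted p 0.0198 by edgeR). In CD4 cells Mcm6 was at 197, 291, 431, 321 and 566 CPM at week 1 and 164, 278, 126, 127 and 112 CPM at week 3. The groups overlapped through week 1 replicate 1 and week 3 replicate 2 (log2 fold change -1.16, SE 0.298, adjusted p 0.0149).

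Mcm3 (ENSMUSG00000041859, chr1:20802968-20820312, minus strand), another ring subunit, was at 475, 414, 208, 425 and 429 CPM in CD8 week 1 and 144, 144, 214, 117 and 131 CPM in week 4 (log2 fold change -1.38, SE 0.341, adjusted p 0.00554 by edgeR). In CD4 cells it went from 169.9, 258, 325, 231 and 465.1 CPM to 95.6, 237, 71.3, 62.4 and 77.6 CPM (log2 fold change -1.41, SE 0.342, adjusted p 0.0116). Week 1 replicate 3 in CD8 cells, and replicates 1 and 4 in CD4 cells, lay below the highest later library. In CD8 cells the other ring subunits changed as follows: Mcm2 by -1.05, Mcm4 by -0.97, Mcm5 by -1.39 and Mcm7 by -1.21. In CD4 cells they changed by -1.16, -1.04, -1.89 and -1.22. Per kb of exon, the 6 ring genes stood at 39.8 (Mcm2) to 109.7 (Mcm6) CPM per kb in CD8 week 1.

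Cdc6 (ENSMUSG00000017499, chr11:98907801-98923940, plus strand), the loader that is made anew in each G1, showed the largest CD4 change of the 35 genes. It was at 18.4, 37.8, 48.3, 33.2 and 63.8 CPM in CD4 week 1 and 8.17, 27.3, 2.06, 1.18 and 1.65 CPM in CD4 week 3. Replicates 3 to 5 of week 3 held 2.06 CPM or less, and replicate 2 lay inside the week 1 range (log2 fold change -2.32, SE 0.639, adjusted p 0.0209 by edgeR, with an adjusted p of 0.056 without week 3 replicate 3; -3.63 with an adjusted p of 9.56e-05 without replicate 2). In CD8 cells Cdc6 was at 78.3, 65.5, 30.3, 68.7 and 75.4 CPM at week 1 and 23.4, 24.8, 28.6, 13.8 and 14.8 CPM at week 4. The groups did not overlap, and yet the test was not passed (log2 fold change -1.59, SE 0.617, adjusted p 0.0533). It passed when week 1 replicate 3 was left out (adjusted p 0.0357). Cdc45 and Gins2, which complete the active helicase, fell in CD8 cells (-1.67 and -1.67) and in CD4 cells (-2.06 and -2.02), with every CD8 week 4 library below every week 1 library.

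**Figure D4:**
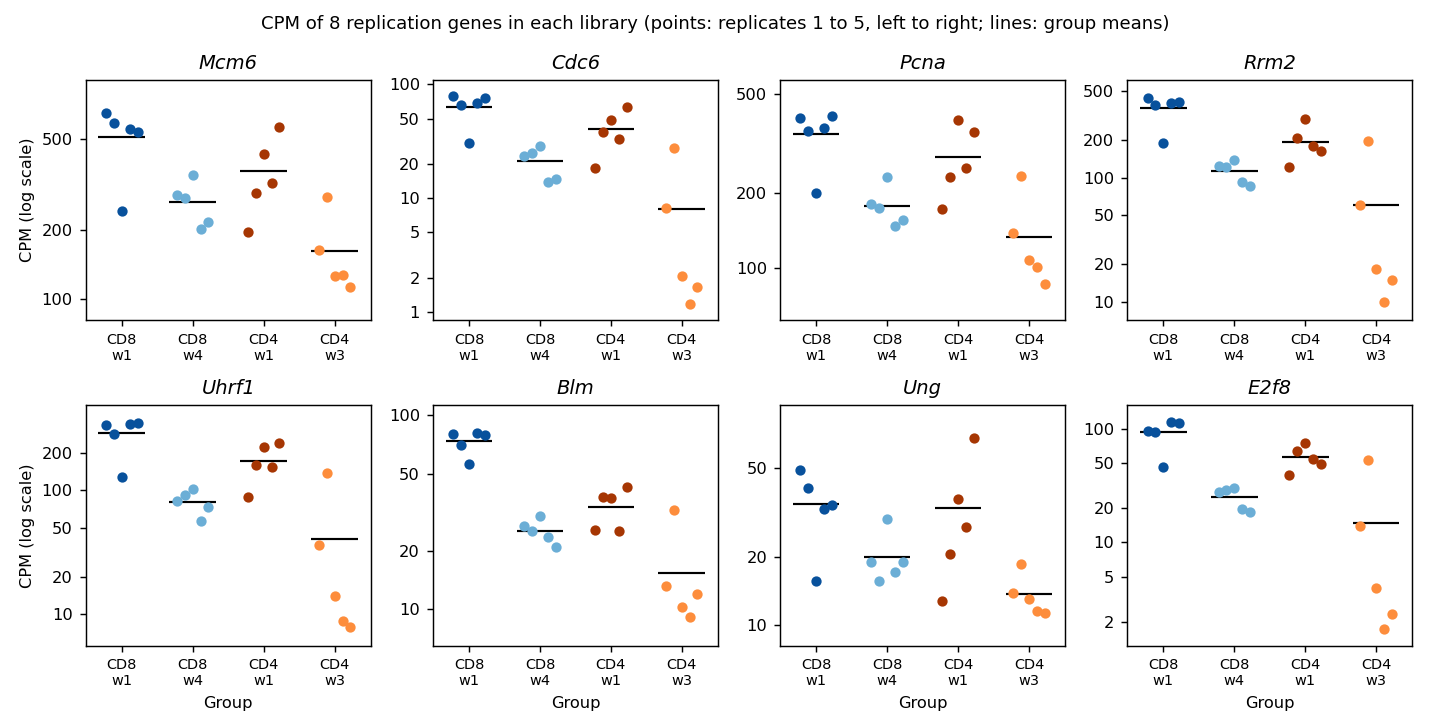
CPM on a log scale for 8 replication genes, with a point for each library (replicates 1 to 5 from left to right) and a line at the group mean. In CD4 week 3, replicates 3 to 5 lie far below replicate 2 for Cdc6 (1.18 to 2.06 against 27.3 CPM) and Rrm2 (9.93 to 18.2 against 195.5 CPM), and the gap is small for Ung (11.3 to 13.1 against 18.7 CPM).

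All 6 genes of DNA synthesis, the clamp and flap removal fell in both cell types, with medians of -1.21 in CD8 and -1.27 in CD4 cells. Pcna (ENSMUSG00000027342, chr2:132249162-132253314, minus strand), the sliding clamp, was at 399, 357, 201, 364 and 408 CPM in CD8 week 1 and 182, 175, 231, 147 and 156 CPM in week 4. It fell, although week 1 replicate 3 lay below week 4 replicate 3 (log2 fold change -0.96, SE 0.265, adjusted p 0.0106 by edgeR). In CD4 cells Pcna was at 172, 233, 393, 252 and 353 CPM at week 1 and 138, 235, 108, 101 and 86.4 CPM at week 3 (log2 fold change -1.07, SE 0.266, adjusted p 0.013). A pseudogene copy, Pcna-ps2, held 386 reads over the 20 libraries against 99678 for Pcna.

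Rfc2 (ENSMUSG00000023104, chr5:134581366-134601805, plus strand), a subunit of the loader that opens the clamp, had the smallest change of the 35 genes in CD8 cells. It went from 132, 121, 59.8, 117 and 125 CPM to 65.9, 74.0, 73.4, 54.1 and 59.9 CPM (log2 fold change -0.76, SE 0.19, adjusted p 0.00569 by edgeR). The CD4 level went from 57.0, 82.0, 95.6, 72.2 and 100.0 CPM to 50.2, 63.2, 44.2, 41.2 and 41.7 CPM (log2 fold change -0.76, SE 0.19, adjusted p 0.0134). Week 1 replicate 3 in CD8 cells and week 1 replicate 1 in CD4 cells lay within the later range. Prim1 and Pola1, a primase subunit and the catalytic subunit of the polymerase that primes each fragment, changed by -1.21 and -1.29 in CD8 and -1.68 and -1.23 in CD4 cells. Dscc1, part of an alternative clamp loader, changed by -1.53 and -2.05, and Fen1, the nuclease that trims flaps between lagging-strand fragments, by -1.21 and -1.31.

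Of the 3 genes of nucleotide supply, all fell in CD8 cells and 2 in CD4 cells, with medians of -1.50 and -1.69. Rrm1 (ENSMUSG00000030978, chr7:102441695-102469771, plus strand), the large subunit of ribonucleotide reductase, was at 498, 402, 203, 464 and 468 CPM in CD8 week 1 and 158, 156, 175, 117 and 116 CPM in week 4, and the groups did not overlap (log2 fold change -1.50, SE 0.392, adjusted p 0.0076 by edgeR). In CD4 cells its level moved from 134, 199.8, 302, 199.8 and 256 CPM to 79.1, 200.5, 42.0, 36.2 and 41.6 CPM (log2 fold change -1.45, SE 0.392, adjusted p 0.019; -2.14 with an adjusted p of 7.67e-05 without week 3 replicate 2). Week 3 replicate 2 lay within the week 1 range, and the other 4 lay below it.

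Rrm2 (ENSMUSG00000020649, chr12:24708241-24714146, plus strand), the small subunit, whose level limits the enzyme in S phase, was at 437, 382, 190.3, 400.2 and 405 CPM in CD8 week 1 and 124, 122, 139, 92.6 and 84.9 CPM in week 4. The groups did not overlap (log2 fold change -1.69, SE 0.581, adjusted p 0.0314 by edgeR). CD4 libraries went from 121, 208, 293, 178 and 164 CPM to 60.0, 196, 18.2, 9.93 and 14.9 CPM. Replicate 2 of week 3 lay within the week 1 range and the other 4 far below it, and the test was not passed (log2 fold change -1.69, SE 0.582, adjusted p 0.0535), while without replicate 2 it was (log2 fold change -2.90, adjusted p 0.000141). Tyms, which makes thymidylate, fell in both cell types (-1.24 in CD8 and -1.75 in CD4).

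All 6 genes that restore chromatin behind the fork fell in both cell types, with medians of -1.21 in CD8 and -1.10 in CD4 cells. Uhrf1 (ENSMUSG00000001228, chr17:56303321-56323486, plus strand), which brings the maintenance methyltransferase to newly copied DNA, was at 337, 282, 127, 342 and 347 CPM in CD8 week 1 and 81.6, 91.7, 101, 56.6 and 72.6 CPM in week 4, without overlap (log2 fold change -1.83, SE 0.595, adjusted p 0.0244 by edgeR). In CD4 cells it went from 88.3, 158, 224, 153 and 242 CPM to 36.1, 137, 14.1, 8.83 and 7.81 CPM (log2 fold change -2.09, SE 0.602, adjusted p 0.0256; -3.38 with an adjusted p of 6.29e-05 without week 3 replicate 2). Replicates 3 to 5 of week 3 held 14.1 CPM or less, and replicate 2 lay inside the week 1 range.

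Slbp (ENSMUSG00000004642, chr5:33634952-33652574, minus strand), the protein that binds the stem-loop of replication histone mRNAs, was at 179, 162, 98.7, 177 and 184 CPM in CD8 week 1 and 103, 92.8, 100.5, 74.8 and 76.2 CPM in week 4 (log2 fold change -0.84, SE 0.222, adjusted p 0.00787 by edgeR). The CD4 level went from 79.8, 106, 148, 114 and 147 CPM to 54.8, 100.1, 48.2, 44.7 and 49.3 CPM (log2 fold change -1.002, SE 0.223, adjusted p 0.00755). Week 1 replicate 3 of CD8 lay inside the week 4 range, and the CD4 groups overlapped. Hells, a remodeller needed for DNA methylation, and its partner Cdca7 changed by -1.45 and -1.27 in CD8 and -1.71 and -1.15 in CD4 cells. The histone chaperone genes Nasp and Chaf1b changed by -1.14 (SE 0.205) and -1.10 in CD8 and by -0.94 and -1.06 in CD4 cells. In 5 of the 6, all but Slbp, every CD8 week 4 library lay below every week 1 library.

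Of 7 genes of fork protection, checkpoint and repair, 6 fell in CD8 cells and all 7 in CD4 cells, with medians of -1.53 and -1.27. Usp1 (ENSMUSG00000028560, chr4:98923810-98935543, plus strand), the enzyme that removes ubiquitin from PCNA, had the smallest CD4 change of the 35. It was at 112, 134, 178, 130.5 and 169 CPM in CD4 week 1 and 89.6, 137, 76.2, 73.0 and 81.3 CPM in week 3 (log2 fold change -0.67, SE 0.168, adjusted p 0.0136 by edgeR). In CD8 cells it went from 207, 189, 149.8, 199.6 and 203 CPM to 112, 95.3, 135, 96.8 and 91.2 CPM without overlap (log2 fold change -0.84, SE 0.168, adjusted p 0.00144). The standard errors of Usp1 were the smallest of the 35 genes in both comparisons.

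Clspn (ENSMUSG00000042489, chr4:126556935-126593903, plus strand), which carries the ATR checkpoint signal to CHK1, was at 163, 147, 81.6, 168 and 174 CPM in CD8 week 1 and 51.9, 51.3, 56.0, 36.6 and 39.5 CPM in week 4, without overlap (log2 fold change -1.64, SE 0.582, adjusted p 0.0365 by edgeR). In CD4 cells its level moved from 53.2, 95.8, 113, 76.1 and 106 CPM to 23.7, 79.6, 6.55, 3.92 and 5.32 CPM (log2 fold change -1.90, SE 0.59, adjusted p 0.0353; -3.17 with an adjusted p of 7.67e-05 without week 3 replicate 2). Replicates 3 to 5 of CD4 week 3 held 6.55 CPM or less, against 79.6 CPM in replicate 2. Its CD8 call ended in 9 of the 10 leave-outs and its CD4 call in 7, with adjusted p of at most 0.0785 and 0.0867.

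Blm (ENSMUSG00000030528, chr7:80454733-80535119, minus strand), the helicase that resolves recombination intermediates, had the smallest CD8 adjusted p of the 35. It was at 79.96, 70.5, 56.1, 80.6 and 79.0 CPM in CD8 week 1 and 26.9, 25.4, 30.3, 23.6 and 20.9 CPM in week 4, and even replicate 3 of week 1 lay well above all week 4 libraries (log2 fold change -1.53, SE 0.27, adjusted p 0.000604 by edgeR). CD4 libraries went from 25.6, 37.8, 37.4, 25.4 and 42.9 CPM to 13.2, 32.3, 10.3, 9.11 and 12.04 CPM (log2 fold change -1.14, SE 0.269, adjusted p 0.0103). Week 3 replicate 2 lay inside the week 1 range.

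Ung (ENSMUSG00000029591, chr5:114130386-114139323, plus strand), the glycosylase that removes uracil from DNA, was at 48.9, 40.7, 15.7, 32.6 and 34.0 CPM in CD8 week 1 and 18.9, 15.6, 29.6, 17.1 and 18.9 CPM in week 4. Replicate 3 of week 1 lay below 4 of the 5 week 4 libraries, and the test was not passed (log2 fold change -0.78, SE 0.35, adjusted p 0.0929 by edgeR). Leaving that library out gave an adjusted p of 0.0312. In CD4 cells Ung went from 12.7, 20.6, 36.3, 27.2 and 68.1 CPM to 13.8, 18.7, 13.1, 11.5 and 11.3 CPM (log2 fold change -1.27, SE 0.354, adjusted p 0.0219). Tipin, part of the complex that stabilises the fork, the nuclease gene Exo1 and Dtl, which marks replication factors such as Cdt1 for destruction, fell in both cell types. Their CD8 changes were -1.19, -1.62 and -1.62, and their CD4 changes -1.25, -2.01 and -2.02.

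All 4 genes of the G1/S control fell in both cell types, with medians of -1.13 in CD8 and -1.58 in CD4 cells. E2f8 (ENSMUSG00000046179, chr7:48866429-48881596, minus strand), a repressor of E2F targets that is itself made in S phase, had the largest CD8 change of the 35. It was at 95.9, 94.3, 46.0, 115 and 113 CPM in CD8 week 1 and 27.5, 28.8, 30.3, 19.8 and 18.6 CPM in week 4, without overlap (log2 fold change -1.89, SE 0.637, adjusted p 0.0286 by edgeR). In CD4 cells it went from 39.1, 63.5, 74.0, 53.7 and 48.6 CPM to 13.9, 52.6, 3.94, 1.73 and 2.32 CPM (log2 fold change -1.90, SE 0.641, adjusted p 0.0487; -3.35 with an adjusted p of 9.31e-05 without week 3 replicate 2). Its CD8 call ended in 4 of the 10 leave-outs and its CD4 call in 9, with adjusted p of at most 0.0633 and 0.114.

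Ccne1 (ENSMUSG00000002068, chr7:38097984-38107534, minus strand), a cyclin E gene, was at 33.1, 47.4, 52.7, 36.5 and 42.6 CPM in CD4 week 1 and 15.7, 32.9, 15.8, 12.5 and 12.8 CPM in week 3. Its highest week 3 library lay just below its lowest week 1 library (log2 fold change -1.24, SE 0.26, adjusted p 0.00538 by edgeR). In CD8 cells it went from 70.7, 56.0, 35.4, 59.97 and 68.1 CPM to 25.4, 19.4, 42.4, 28.5 and 30.1 CPM, with an overlap of replicate 3 of both weeks (log2 fold change -0.99, SE 0.258, adjusted p 0.00725). Ccne2, the other cyclin E gene, changed by -1.27 in CD8 and -1.87 in CD4 cells. E2f1, an activator of the same targets, changed by -0.91 and -1.30.

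The third question was whether the change differed between the cell types. No replication gene was called by edgeR, DESeq2 or limma-voom when the CD4 change was subtracted from the CD8 change, and by edgeR none had an unadjusted p under 0.05, where 0.406% of all genes were called lower and 0.248% higher by edgeR. The differences ran from -0.39 (Blm, SE 0.375) to 0.72 (Cdc6, SE 0.861), with a median of 0.16, against 0.01 over all genes. The fall was larger in CD4 cells in 26 of the 35. With SEs from 0.236 to 0.861, these values do not show that the cell types changed alike. Without CD4 week 3 replicate 2 the median difference was 0.61, and still none was called. Across the 35 genes the CD8 and CD4 log2 fold changes had a Pearson r of 0.816 and a Spearman rho of 0.801, given as a description, since the genes share the same libraries.

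The cell types were then set against each other at each stage, where the cell type and the range of sample numbers cannot be told apart. At week 1, after the same 4 days of expansion, the values of the replication genes lay higher in CD8 than in CD4 libraries, though within the spread of the libraries for all but Blm. The log2 difference was above 0 in all 35, against 49.3% of all genes, with a median of 0.48 (-0.01 over all genes). Blm alone passed, where 19.0% of all genes were lower and 19.1% higher in CD8 cells by edgeR. Its level was 73.2 ± 10.4 CPM in CD8 and 33.8 ± 7.9 CPM in CD4 week 1 (SD, n = 5; log2 fold change 1.11, SE 0.267, adjusted p 0.00308), and the lowest CD8 library (56.1 CPM) lay above the highest CD4 library (42.9 CPM). The next largest differences did not pass: Rrm2 0.91 (adjusted p 0.214) and Rrm1 0.90 (adjusted p 0.0734). Without CD8 week 1 replicate 3 the count was 5, without CD4 week 1 replicate 3 or 5 it was 2, and with only the week 1 libraries in the fit it was 8. Over all genes, 2962 of 13450 were higher without CD8 week 1 replicate 3, and 2395 of 12400 with only the week 1 libraries.

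In long-term culture the values also lay higher in CD8 libraries for most of the genes, though few passed, and here the cell type and the length of expansion (25 and 18 days) cannot be told apart. The log2 difference was above 0 in 34 of the 35, against 50.6% of all genes, with a median of 0.71 (0.01 over all genes). The exception, Cdca7, had -0.11 (adjusted p 0.809). Blm, Slbp and Ccne1 passed, where 15.0% of all genes were lower and 17.7% higher by edgeR. Blm was at 25.4 ± 3.52 CPM in CD8 and 15.4 ± 9.59 CPM in CD4 cells (SD, n = 5; log2 fold change 0.73, SE 0.268, adjusted p 0.0446). Slbp was at 89.5 ± 13.3 and 59.4 ± 23 CPM (log2 fold change 0.59, SE 0.221, adjusted p 0.0474), and Ccne1 at 29.1 ± 8.46 and 17.9 ± 8.51 CPM (log2 fold change 0.70, SE 0.259, adjusted p 0.0446).

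This comparison turned on CD4 week 3 replicate 2. Without it 30 of the 35 were called higher in CD8 cells and the median was 1.18. Mcm2, Cdca7, Nasp, Chaf1b and Ung were the 5 not called. Over all genes tested, 3018 of 13448 were then higher and 2417 lower. That library was highest of its group for all 35 genes, so more calls in this direction follow from leaving it out. With any other library left out 0 to 2 were called, so that each of the 3 calls ended in 7 or 8 of the 10 leave-outs, with adjusted p of at most 0.13. The count also moved with the method: 6 passed by DESeq2, 19 by limma-voom, 1 with only the long-term libraries in the fit and 0 with no filter on low counts. Over all genes, 2533 and 2493 of 13290 were higher by DESeq2 and limma-voom. With only the long-term libraries it was 1911 of 12588, and with no filter 2292 of 24868.

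**Figure D5:**
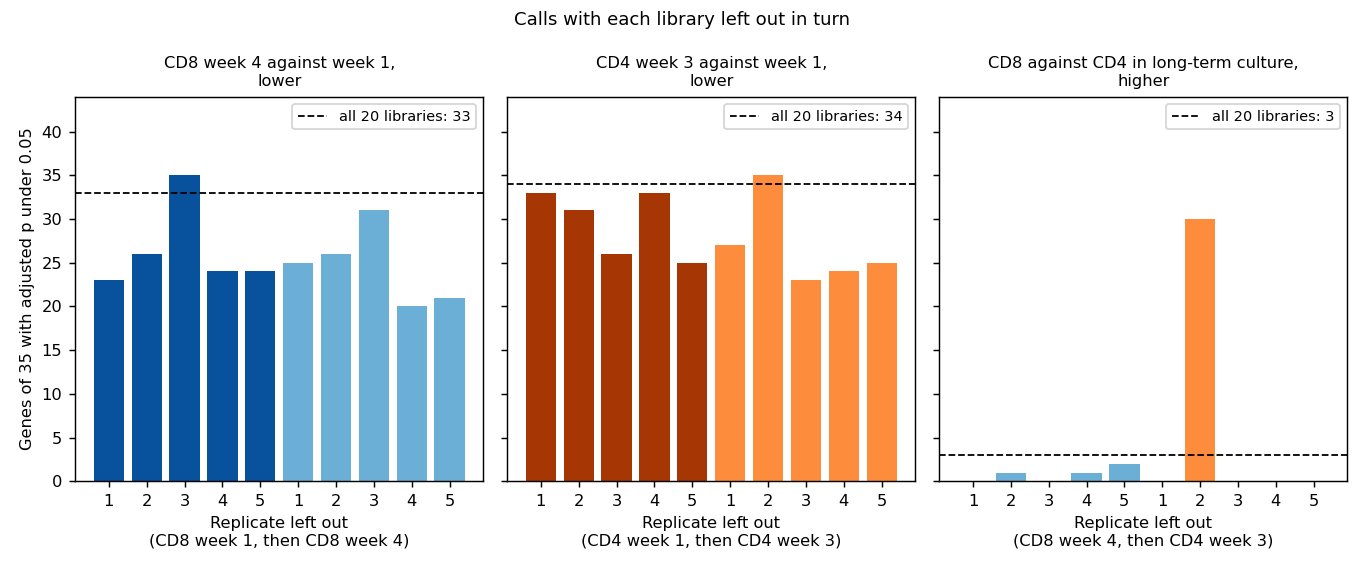
Bars give the number of the 35 genes with an adjusted p under 0.05 when the library named below is left out, for 3 comparisons, and dashed lines the number with all 20 libraries (33, 34 and 3). Leaving out CD4 week 3 replicate 2 gives 35 lower genes in CD4 cells and 30 higher genes in the long-term comparison, and CD8 week 4 replicates 4 and 5 give the lowest CD8 counts, 20 and 21.

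Levels between genes were compared per kb of exon. In CD8 week 1, Pcna (144 ± 35 CPM per kb), Rrm2 (131 ± 35.6), Mcm6 (109.7 ± 33.6) and Mcm3 (104 ± 27.9) were highest, with values that overlapped within their SDs (n = 5). Dscc1 and Exo1 were lowest, at 4.28 and 4.62 CPM per kb. In CD4 week 3, Pcna was highest (55.7) and Rrm2 stood at 21.6, below Usp1 (24.5), Mcm6 (34.6), Mcm4 (34.3) and Mcm3 (29.0). Its SD there was larger than its mean (28.3 CPM per kb). Mki67, a marker of cycling cells outside the 35, was at 543 CPM in CD8 week 1 replicate 3 against 947 to 1082 CPM in the other week 1 libraries. It was at 630.3 CPM in CD4 week 3 replicate 2 against 21.7 to 158 CPM in the other week 3 libraries, so both of these libraries stood apart in this marker too. Mki67 fell in CD8 cells (log2 fold change -1.91, adjusted p 0.0252 by edgeR, and 0.0527 and 0.0534 without week 4 replicate 4 or 5) and had -1.54 in CD4 cells (adjusted p 0.091, and 0.000107 without week 3 replicate 2).

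A further 112 genes of the same pathways, in 6 lists, were all tested. In CD8 cells 88 fell and none rose, where 16.4% of all genes tested were lower and 17.1% higher (median -0.96; Samhd1, Rrm2b, E2f5 and Rbl2 were above 0 with adjusted p of at least 0.126), and in CD4 cells 69 fell and 2 rose, where 8.80% were lower and 7.67% higher (median -0.81). Among 19 other origin and helicase genes, 15 fell in CD8 and 14 in CD4 cells. Dbf4, the activator of the CDC7 kinase, had the smallest CD8 adjusted p (log2 fold change -1.50, SE 0.186, adjusted p 3.72e-05 by edgeR; -0.75 in CD4), followed by Orc6 and Gins3, with CD8 and CD4 changes of -1.09 and -1.06, and -0.98 and -0.82. Among 23 polymerase, clamp and ligase genes, 20 fell in CD8 and 16 in CD4 cells. Rpa2, which coats single-stranded DNA, Pole2 and Rfc1 had the smallest CD8 adjusted p of these, where the median log2 fold change was -0.98 (-0.98, -1.01 and -0.61).

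Nucleotide supply had the smallest share of calls: 8 of 15 genes fell in CD8 and 6 in CD4 cells. Dck, the salvage kinase, Shmt1 and Dut, which keeps uracil out of DNA, had CD8 changes of -1.12, -1.28 and -1.39. Rrm2b, the ribonucleotide reductase subunit that p53 induces outside S phase, rose in CD4 cells (log2 fold change 0.64, SE 0.164, adjusted p 0.0149 by edgeR) and had 0.27 in CD8 cells (adjusted p 0.211, and 0.01 without CD8 week 1 replicate 3). Among 14 chromatin and methylation genes, 13 fell in CD8 and 10 in CD4 cells. The histone chaperone genes Supt16 and Rbbp4 and the chromatin protein gene Hmgb2 had the smallest CD8 adjusted p of these, where the median log2 fold change was -0.79 (-0.54, -0.58 and -1.67).

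Of 21 fork and repair genes, 16 fell in CD8 cells, and 13 fell and 1 rose in CD4 cells. Rad18, the ligase that puts ubiquitin on PCNA, Msh6, of mismatch repair, and Timeless, the partner of Tipin, had CD8 changes of -0.93, -0.87 and -1.42. The gene that rose was Atr, the checkpoint kinase, with 0.33 in CD4 cells (adjusted p 0.0196 by edgeR). That call ended without CD4 week 1 replicate 2 or 3 or week 3 replicate 4 (adjusted p 0.0507 to 0.0544). In CD8 cells Atr fell (log2 fold change -0.37, SE 0.0888, adjusted p 0.00449 by edgeR), although not within the lower range of sample numbers (adjusted p 0.177). Atr was the 1 gene of the 112 whose CD8 and CD4 changes differed by the test (log2 fold change -0.70, SE 0.126, adjusted p 0.0142). Over all genes 0.406% were called lower and 0.248% higher by that test, so 1 call among 112 says nothing particular of this pathway. Of 20 other E2F, RB and G1/S genes, 16 fell in CD8 and 10 in CD4 cells. The smallest CD8 adjusted p were those of Cdk2, the kinase of cyclin E, and of Lin54 and Lin9 of the DREAM complex (-1.34, -0.91 and -0.82). Of the genes named for their CD8 change in the 6 lists, Dbf4, Shmt1, Hmgb2, Rad18 and Lin54 kept their call in every alternative. Orc6, Gins3, Rpa2, Pole2, Rfc1, Dck, Dut, Supt16, Rbbp4, Msh6, Timeless, Cdk2 and Lin9 lost it within the lower range of sample numbers (adjusted p 0.0506 to 0.179) and in no other alternative.

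Between the cell types, 17 of the 112 were higher and 2 lower in CD8 cells at week 1, and 10 were higher and 3 lower in long-term culture. The shares over the whole table of tested genes were 19.1% in the higher and 19.0% in the lower direction at week 1, and 17.7% and 15.0% in long-term culture, so that none of these counts lay above the share over all genes. The lower ones at week 1 were Samhd1, which degrades nucleotides (log2 fold change -1.28, SE 0.244, adjusted p 0.000525 by edgeR), and Chtf8 (-0.23, adjusted p 0.0169, and 0.0536 with only the week 1 libraries). In long-term culture they were Samhd1 (-0.80), E2f2 (-0.92) and Orc4 (-0.46). The E2F 8-mers stood in the windows of 27 of the 92 genes of these lists that matched the RefSeq table (29.3%).

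Several replication genes start head to head with another gene, within 1 kb on the opposite strand. Of 8 such neighbours 6 passed the filter on low counts, and the reads were counted by strand. Their median changes were 0.14 in CD8 and -0.11 in CD4 cells, and 1 fell and 1 rose in CD8 cells and 1 fell in CD4 cells, where 16.4% of all genes tested fell and 17.1% rose in CD8 cells and 8.80% fell in CD4 cells. With 6 genes, these counts say nothing particular of the neighbours. Prkdc, beside Mcm4, had 0.11 in CD8 and 0.21 in CD4 cells, and Ap4m1, beside Mcm7, 0.17 and -0.09. Tmem258, beside Fen1, had -0.16 and -0.13, and AV099323, beside Pcna, 0.29 and -0.23, none of which passed. Ints7, 92 bases from Dtl, fell in both (-0.30, adjusted p 0.0278, and -0.53, adjusted p 0.00335, by edgeR), against -1.62 and -2.02 for Dtl. Ufd1, 208 bases from Cdc45, was higher at CD8 week 4 (0.23, adjusted p 0.0245), where Cdc45 fell. The CD8 calls of Ints7 and Ufd1 ended in 6 and 4 of the 10 leave-outs (adjusted p of at most 0.0882 and 0.0708).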

How the data were processed

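The authors deposited raw read counts per gene, 1 column for each of the 20 libraries. Per the file headers, they were made with featureCounts 1.6.3 on reversely stranded reads (strand setting 2) with the GENCODE M12 annotation of GRCm38, and STAR is named in the submitters' processing notes (build mm10). STAR's version is not given in the sources used here. Gene names matched 49326 of 49671 IDs. The tests were edgeR's quasi-likelihood tests (edgeR 4.0.16, R 4.3.3) in 1 fit with 4 group means, after filterByExpr and TMM scaling, and p-values were adjusted by Benjamini-Hochberg over all 13290 genes tested. CPM of the replication genes and Mki67 are over TMM-scaled library totals, and marker CPM over plain totals. The code was tested on simulated data. All 40 pairs of libraries within a group differed by more than sampling noise, so none was counted as a duplicate.

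Each of the 35 genes is named. Values in every library are given for the 2 genes of each role with the highest mean CPM, those with the largest and smallest changes, and those that did not pass in CD8 cells; Blm was added after its values were seen. In the other lists, up to 3 genes with the smallest CD8 adjusted p and those called against the majority are named. The genes and lists were chosen with earlier results of these data known. Alternatives were RLE factors, library totals, DESeq2 1.42.0, limma-voom (limma 3.58.1), other filters (none, or at least 5 CPM in 5 libraries), fits of fewer groups, the range of sample numbers, and leaving out each library. Promoter windows are RefSeq's. Intervals for single counts were not used, since 5 libraries a group give the error.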

Additional observations from a re-analysis of the deposited data

Results flagged for a closer look

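Within each group of 5 libraries, a library was picked out for a gene when its gap to the nearest of the others, on the log2 CPM scale, as a share of the group's whole range, was above Dixon's 95% critical value. Of 140 tests, 4 groups for each of the 35 genes, 35 picked out a library, where chance gives about 1 in 20, and the genes are not independent of each other. CD8 week 1 replicate 3 was picked out as low for 26 genes. Its CPM values for the helicase genes were Mcm2 135, Mcm3 208, Mcm4 210.0, Mcm5 150.5, Mcm6 242, Mcm7 139.9, Cdc6 30.3, Cdc45 32.6 and Gins2 15.4. For the genes of synthesis, nucleotide supply and chromatin they were Pcna 201, Prim1 41.1, Rfc2 59.8, Dscc1 9.9, Fen1 70.1, Rrm1 203, Rrm2 190.3, Uhrf1 127, Hells 77.5 and Slbp 98.7. For the remaining genes they were Clspn 81.6, Tipin 57.6, Usp1 149.8, Dtl 53.0, Ccne2 19.1, E2f1 23.3 and E2f8 46.0. The median relative log2 level of the 35 genes in that library, 0.18, was also apart from the other 4. CD8 week 4 replicate 3 was picked out as high for 3 genes, at Mcm2 180.1, Nasp 93.7 and Chaf1b 36.1 CPM. CD4 week 3 replicate 2 was picked out as high for 6 genes, at Mcm4 216, Mcm7 176, Cdca7 89.2, Nasp 89.1, Slbp 100.1 and Ccne1 32.9 CPM. No CD4 week 1 library was picked out. What set these libraries apart was not tested.

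Atr, the checkpoint kinase gene of the wider pathway, changed differently in the cell types by the edgeR interaction test. The CD8 log2 change minus the CD4 change was -0.70 (adjusted p 0.0142), with -0.37 in CD8 and 0.33 in CD4 cells. It was 1 of 112 genes in the wider lists, where 0.406% of all genes were called lower and 0.248% higher.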

How the results depend on the processing

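Over the alternatives run for each comparison, no call of any of the 35 genes changed sign. For CD8 cells over time, 3 genes fell within the lower range of sample numbers, where 287 of 12401 genes tested were lower. The median log2 fold change within the upper range was -1.80. Leaving out 1 library gave 20 to 35 lower genes. For CD4 cells over time, 11 genes fell with only the CD4 libraries in the fit, where 551 of 12380 genes tested were lower. In the CD4 comparison, leaving out 1 library gave 23 to 35 lower genes and a median of -1.91 to -1.18. The median difference between the CD8 and CD4 changes was 0.0035 to 0.61 with 1 library left out. For CD8 against CD4 at week 1, 2 genes were higher by DESeq2, 2 by limma-voom and 8 with only the week 1 libraries, and 1 to 5 with 1 library left out. In long-term culture, 6 were higher by DESeq2, 19 by limma-voom, 0 with no filter on low counts and 1 with only the long-term libraries. With 1 library left out 0 to 30 were higher, and the median was 0.57 to 1.18. The cause was not tested. Of 700 values for single genes in the CD8 comparison, 109 lost a call and 10 gained one, and in the CD4 comparison 85 lost and 3 gained one. No paired analysis was run because the labels give the groups no shared replicate numbers. Sample numbers alternate between week 1 and the later week, and the labels do not say whether neighbouring numbers belong together. Depth limits low genes most, and the lowest count among the 35 genes was 23, for Dscc1.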
